A study of Arabidopsis thaliana with 12 samples.

Results

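The comparison described here set roots of the Arabidopsis mutant crr against roots of the wild type Col-0 when both had phosphate. Members were the 3 libraries labelled crr +Pi and the 3 labelled Col-0 +Pi, which make 6 of the 12 libraries of the series. The 6 others came from roots of the same genotypes grown without added phosphate. All 20017 genes of the deposited expression table were used, of which 17771 had a mean level of at least 1 log2 CPM (log2 of CPM, the counts of a gene scaled to a common library total) over the crr +Pi and Col-0 +Pi groups. That value is called the level limit below.

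In the crr roots a T-DNA interrupted intron 1 of CRR, and the study's methods name this single insertion allele, crr-1, as the line sequenced. Col-0 is the parental accession and carried no insertion. Both genotypes were grown as seedlings for 7 days on agar with diluted Murashige and Skoog medium and 1 mM phosphate, and each library held RNA from the pooled roots of many seedlings, so the crr group stands for a single insertion line. The table holds the authors' mean for each group and no value for a single library. No replicate error, interval or test could therefore be computed for any difference below, and the table holds no read counts from which the depth behind each value could be computed. Read numbers that the study gives per library were not used here. Whether a difference exceeds the spread between replicates cannot be told from these means. Pooled whole roots were measured, so fewer cells of a type and less RNA per cell cannot be told apart.

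CRR encodes a CYBDOM protein, a membrane protein that joins a cytochrome b561 domain to a DOMON domain. Cytochrome b561 proteins pass electrons across membranes, usually from ascorbate on the inner side to an acceptor such as ferric iron on the outer side. Roots reduce ferric iron before taking it up, and in roots short of phosphate the iron held in the cell walls of the tip is tied to the arrest of primary root growth. The comparison with phosphate asks how far the root transcriptome of crr differed from that of Col-0 without that stress.

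CRR (AT3G25290, chr3:9208861-9210653, TAIR10, plus strand) lay at -0.38 log2 CPM in crr +Pi roots, against 5.99 log2 CPM in Col-0 +Pi roots. The difference was -6.37 log2 units, or 82.6-fold, and on a CPM scale the means stood at 0.769 in crr and 63.5 in Col-0. The gene was low in the libraries that carry the mutant label and high in the others, also without phosphate, where it lay at -0.11 log2 CPM in crr and 5.64 log2 CPM in Col-0. Reads were counted over the whole gene, so transcripts from exon 1 alone and from the parts beyond the insertion were not separated. The intron that holds the insertion is 86 bases long and spans chr3:9209609-9209694. It is shown here in the wild-type reference, since it is the site that separates the genotypes, from RefSeq TAIR10.1, plus strand, chr3:9209579-9209724, with the last 30 bases of exon 1 and the first 30 of exon 2 in capitals:
CRR intron 1: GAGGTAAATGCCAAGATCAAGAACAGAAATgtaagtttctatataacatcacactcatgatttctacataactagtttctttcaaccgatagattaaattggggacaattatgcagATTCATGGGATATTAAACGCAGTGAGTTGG

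The other measured CYBDOM genes differed far less than CRR between crr and Col-0 with phosphate. 8 of the 10 listed family members were in the table, and all 8 were above the level limit. CRR;H1 (AT4G12980), the closest relative of CRR, lay at 3.18 log2 CPM in crr and 3.24 log2 CPM in Col-0. HYP1 (AT5G35735), another member studied in roots, had the highest difference of the family at 0.15 log2 units, with 5.34 log2 CPM in crr and 5.19 log2 CPM in Col-0. AT4G17280, the member with the highest level, lay at 6.17 log2 CPM in crr and 6.37 log2 CPM in Col-0. The difference of AT4G17280 was -0.20 log2 units, while the central 95% of genes at its level spanned -0.156 to 0.146 log2 units. The remaining members AT5G47530, AT2G04850, AT3G07570 and AT3G61750 had differences of -0.12, -0.15, -0.06 and 0.00 log2 units. None of the 7 measured relatives of CRR was as much as 1.5-fold apart. The list of 5 genes that held the cytochrome b561 proteins without a fused DOMON domain and AIR12, a DOMON protein of the plasma membrane, lay between -0.08 log2 units for ACYB-2 and 0.03 log2 units for CYB561D.

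Outside CRR the group means lay close together. Above the level limit, 91.2% of genes differed by less than 0.25 log2 units and 98.9% by less than 0.5 log2 units, and the median difference was 0.002 log2 units. At least 2-fold apart were 1 gene that was higher in crr, 0.00563% of those above the limit, and 5 that were lower in crr, 0.0281%. At 1.5-fold, 41 genes were higher in crr (0.231%) and 58 were lower (0.326%). After adding 1 CPM to each mean, 0 genes were 2-fold higher and 1, CRR, was 2-fold lower. The count without phosphate, from the other 6 libraries, was 21 higher (0.118%) and 31 lower (0.173%) of 17872 genes above the limit there.

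The spread of the differences widened as the level dropped. Among genes between 1 and 2 log2 CPM the SD of the differences over genes was 0.283 log2 units, and above 8 log2 CPM it was 0.069 log2 units. Of the 99 genes at least 1.5-fold apart (0.557%), 91.9% lay under 3 log2 CPM, where 22.3% of all genes above the limit lay. Among the 6986 genes at 5 log2 CPM or more, 1 was 1.5-fold apart, and the largest difference there was 0.75 log2 units in size, at AT5G21940. For part of the named genes below, the central 95% of differences among genes at that level is also given. This central range describes the table and is not a replicate error. By construction a set share of all genes lies outside it, and the ends of a list were named for being extreme. Genes of other lists named below also lay outside it, such as AMT1-2, CYP75B1, ERF104, WRKY45 and PLT1, where the range is not printed.

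**Figure D1:**
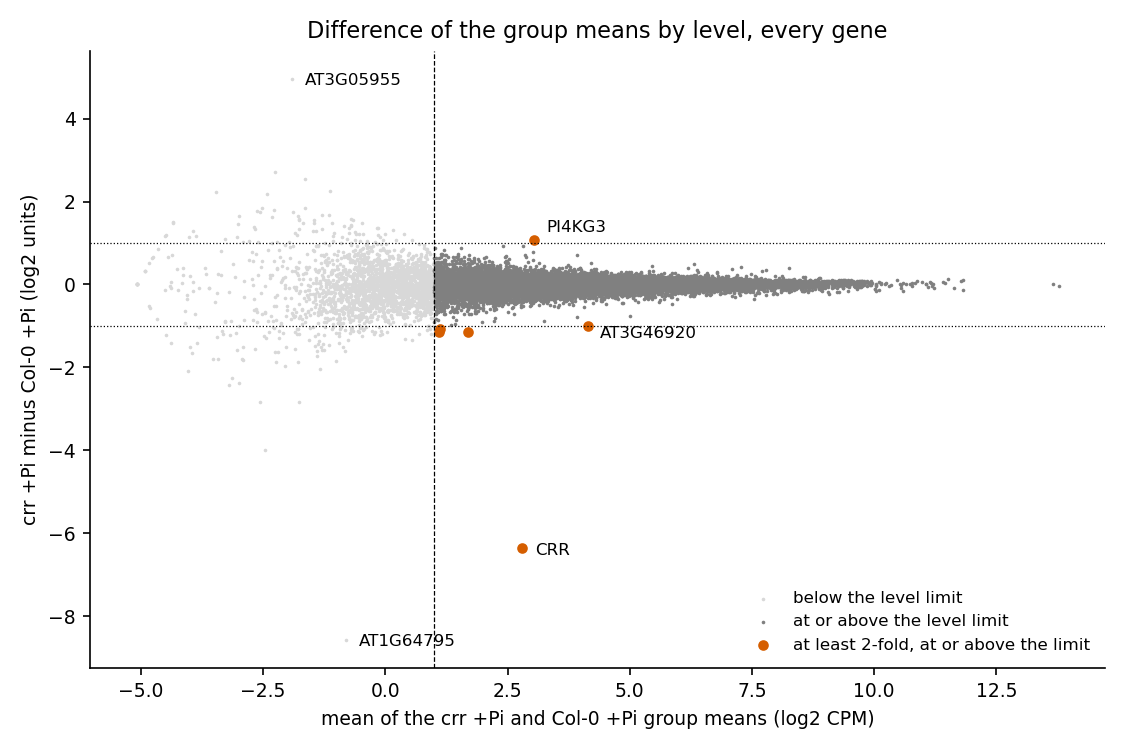
Each point is a gene, with the mean of the crr +Pi and Col-0 +Pi group means on the horizontal axis (log2 CPM) and the crr minus Col-0 difference on the vertical axis (log2 units). The dashed line marks the level limit, dotted lines mark 2-fold, and the 6 orange genes are at least 2-fold apart above the limit, with CRR at -6.37 log2 units far below the other 5.

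PI4KG3 (AT5G24240, chr5:8230916-8234150), annotated as phosphatidylinositol 4-kinase gamma 3, was the gene at least 2-fold higher in crr. It lay at 3.57 log2 CPM in crr and 2.51 log2 CPM in Col-0, a difference of 1.06 log2 units, while the central 95% of genes at its level spanned -0.305 to 0.278 log2 units. Without phosphate it was again higher in crr, at 2.93 log2 CPM against 1.06 log2 CPM in Col-0. AT3G46920 (chr3:17280430-17285048), a protein kinase with an octicosapeptide/Phox/Bem1p domain, lay at 3.64 log2 CPM in crr and 4.64 log2 CPM in Col-0. Its difference of -1.0 log2 units compares with a central range of -0.233 to 0.220 log2 units, and without phosphate it was -0.93 log2 units. PI4KG3 and AT3G46920 were the only genes at least 2-fold apart when the level limit was raised to 3 log2 CPM, a limit that CRR itself, with a mean level of 2.80 log2 CPM, does not meet.

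The 3 other genes at least 2-fold lower in crr were weakly expressed. AT1G52820, a member of the oxygenases that use 2-oxoglutarate and ferrous iron, lay at 1.12 log2 CPM in crr and 2.27 log2 CPM in Col-0. Without phosphate it was higher in crr, at 2.84 log2 CPM against 0.73 log2 CPM in Col-0. FMO GS-OX2 (AT1G62540), which oxidises the sulfur of aliphatic glucosinolates, lay at 0.52 log2 CPM in crr and 1.66 log2 CPM in Col-0, and without phosphate it was also lower in crr, by a difference of -0.99 log2 units. AT1G49000, of no annotated function in the table, lay at 0.57 log2 CPM in crr and 1.66 log2 CPM in Col-0, and its difference without phosphate was 0.03 log2 units. Central ranges at this level spanned -0.589 to 0.531 log2 units.

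**Figure D2:**
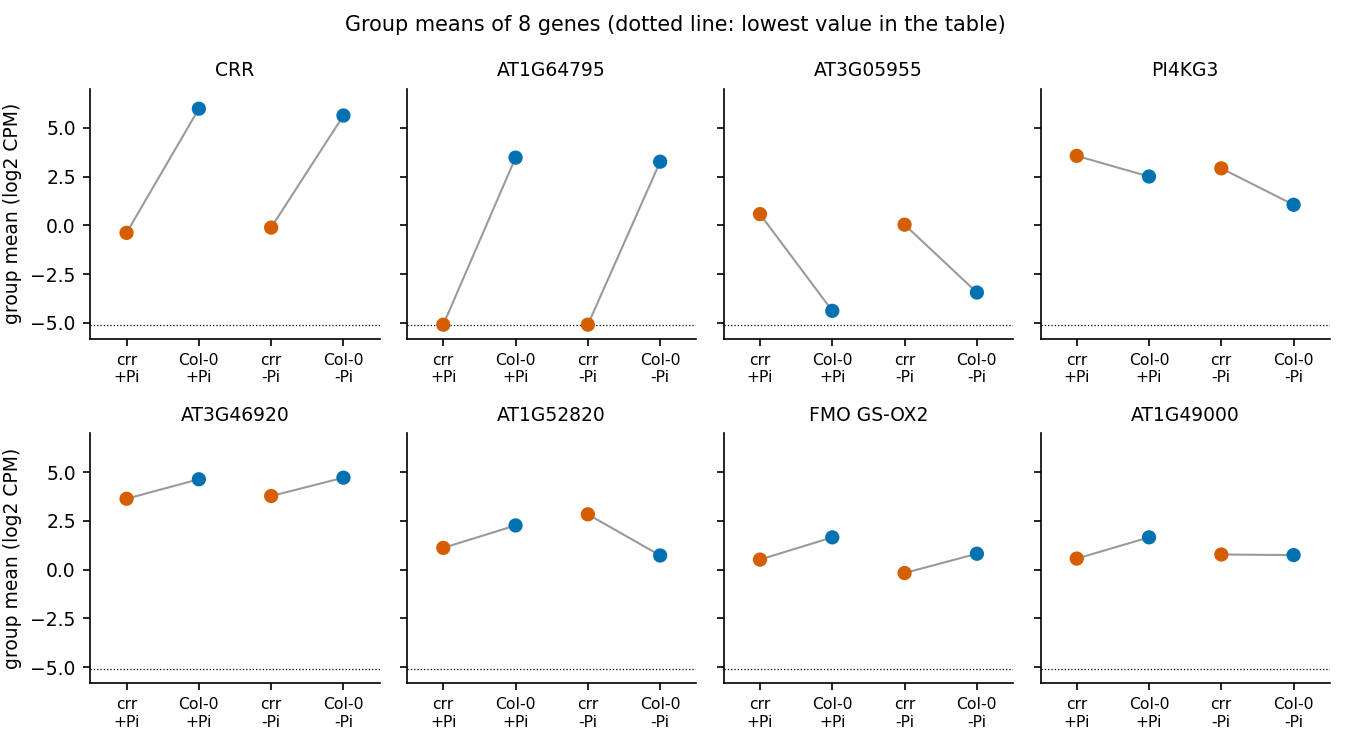
Authors' group means (log2 CPM) of 8 genes in crr +Pi, Col-0 +Pi, crr -Pi and Col-0 -Pi roots, with crr in orange, Col-0 in blue and the lowest value of the table as a dotted line. CRR and AT1G64795 are low in crr at both supplies, PI4KG3 is higher in crr at both, and AT1G52820 is lower in crr with phosphate and higher in crr without it.

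Of the 15 genes with the highest differences, ICL and AT2G39980 came after PI4KG3. ICL (AT3G21720), the isocitrate lyase of the glyoxylate cycle, lay at 3.28 log2 CPM in crr and 2.34 log2 CPM in Col-0. AT2G39980 had a difference of 0.93 log2 units as well, from 2.88 log2 CPM in crr and 1.95 log2 CPM in Col-0. A pair of genes of the GH3 family, whose known members join amino acids to auxin and other acids, had differences of 0.77 log2 units (AT5G51470) and 0.71 log2 units (AT1G23160). AT5G51470 lay at 3.41 log2 CPM in crr and 2.64 log2 CPM in Col-0, AT1G23160 at 3.21 log2 CPM in crr and 2.50 log2 CPM in Col-0. Of the 15 genes, 8 had a difference of the same sign without phosphate. There ICL, AT2G39980, AT5G51470 and AT1G23160 had differences of 0.46, 0.33, 0.30 and 0.23 log2 units. These 4 genes and PI4KG3 had mean levels above 2 log2 CPM, and the other 10 of the 15 lay under it.

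Those 10 were ENODL10, an early nodulin-like protein, at 0.89 log2 units, the extensin-like PEX3 at 0.88, the ARM repeat protein AT4G14280 at 0.84, AT3G16750 at 0.74, GOLS2 and ERECTA at 0.73 each, CSP41A at 0.72, the TIR-NBS-LRR gene AT5G41750 at 0.71, and AT4G28690 and AT2G39560 at 0.70 each. GOLS2, a galactinol synthase of raffinose synthesis, lay at 1.51 log2 CPM in crr and 0.78 log2 CPM in Col-0. ERECTA, a receptor kinase of organ growth and stomatal patterning, lay at 1.52 log2 CPM in crr and 0.80 log2 CPM in Col-0. CSP41A, a chloroplast RNA-binding protein, lay at 1.51 log2 CPM in crr and 0.80 log2 CPM in Col-0. Without phosphate the differences of GOLS2, ERECTA and CSP41A were -0.08, 0.39 and -0.94 log2 units.

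At the lower end, the 10 genes after the first 5 had differences between -0.97 and -0.81 log2 units. CYP712A1, a cytochrome P450, lay at 0.86 log2 CPM in crr and 1.83 log2 CPM in Col-0 with phosphate. Without phosphate it was higher in crr, at 1.69 log2 CPM against 0.61 log2 CPM in Col-0, and its whole length of 1775 bases overlaps AT2G42247 on the other strand, so reads of the pair may not have been told apart. AT5G08250, also a cytochrome P450, lay at 2.80 log2 CPM in crr and 3.68 log2 CPM in Col-0, and its difference without phosphate was -0.65 log2 units. AT5G65030 had a difference of -0.95 log2 units with phosphate and -1.22 log2 units without. The others were the GDSL lipase gene AT4G16233 at -0.91, AT4G07455 at -0.90, RTFL17 of the ROTUNDIFOLIA-like small peptides at -0.87, AT1G58590 at -0.86, AT1G33615 at -0.85, AT1G22160 at -0.83 and AT1G48330 at -0.81 log2 units, of which AT1G58590 and AT1G33615 are annotated as noncoding RNAs.

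The genotype difference without phosphate used none of these libraries. Of the 99 genes at least 1.5-fold apart with phosphate, 53 (53.5%) had a difference of the same sign without it, against 50.3% of all genes above the limit. Of the 41 that were higher in crr, 21 had the same sign, and of the 58 that were lower, 32 had. Among the 6 genes at least 2-fold apart, CRR, PI4KG3, AT3G46920 and FMO GS-OX2 had the same sign at both supplies, while AT1G49000 and AT1G52820 were negative with phosphate and positive without it. Across all genes above the limit the correlation of the differences at the 2 supplies was 0.074 (Pearson's r over genes, which are not independent), and 0.018 with CRR left out.

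**Figure D3:**
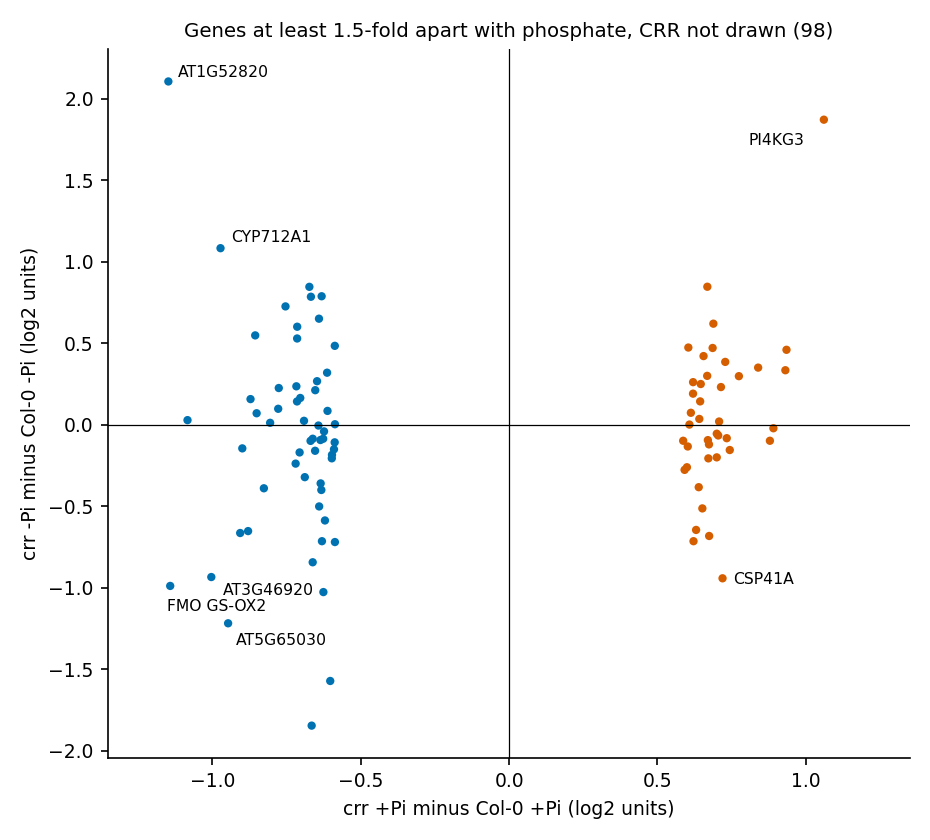
Each point is 1 of 98 genes at least 1.5-fold apart with phosphate, CRR not drawn, with the crr minus Col-0 difference with phosphate on the horizontal axis and without phosphate on the vertical axis (log2 units). Orange genes were higher and blue genes lower in crr +Pi, and each colour spreads to both sides of 0 on the vertical axis.

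A few loci under the level limit stood apart at both supplies, and they were chosen after their values were seen. AT1G64795 (chr1:24082579-24082848, plus strand, annotated as protein coding) was listed at the lowest value of the table, -5.09 log2 CPM, in crr roots with and without phosphate. In Col-0 roots it lay at 3.48 log2 CPM with phosphate and 3.27 log2 CPM without. Because the crr means stood at that lowest value, no fold is given. Of the 26 genes at the lowest value in crr +Pi or Col-0 +Pi, AT1G64795 alone had the other group at 1 log2 CPM or more, and the next highest level of any of them was -2.99 log2 CPM. The gene lies inside ILA (AT1G64790, chr1:24064822-24083428), a translational activator on the minus strand, and 142 of its 201 exon bases fall in exons of ILA. ILA lay at 8.22 log2 CPM in crr and 8.02 log2 CPM in Col-0. Whether counting used the strand is not given in the sources used here. None of the 221 windows of 50 bases in the gene occurs elsewhere in the reference genome.

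The annotated gene is printed because its reads were at the lowest value in crr and not in Col-0, from RefSeq TAIR10.1, plus strand, chr1:24082579-24082848, with exons in capitals and the intron of 69 bases in lower case:
AT1G64795: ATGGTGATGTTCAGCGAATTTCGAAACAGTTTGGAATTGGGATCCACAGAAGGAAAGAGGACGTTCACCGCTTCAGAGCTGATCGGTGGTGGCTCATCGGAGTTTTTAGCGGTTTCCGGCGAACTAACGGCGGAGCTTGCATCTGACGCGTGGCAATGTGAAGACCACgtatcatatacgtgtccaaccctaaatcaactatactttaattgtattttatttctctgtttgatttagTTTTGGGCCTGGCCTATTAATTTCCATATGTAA

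AT3G05955, annotated as a long noncoding RNA (chr3:11586005-11586548), was higher in crr. It lay at 0.58 log2 CPM in crr and -4.38 log2 CPM in Col-0 with phosphate, and at 0.04 log2 CPM in crr and -3.44 log2 CPM in Col-0 without. Of its 495 windows of 50 bases, 14.5% also occur elsewhere in the genome, so part of its reads may not be its own. The other genes at least 2-fold apart in the same direction at both supplies, among those with a crr +Pi or Col-0 +Pi mean of at least 0 log2 CPM, were CRR, PI4KG3, AT1G44030, PIMT2 and AT4G17098. AT1G44030, a gene of the cysteine- and histidine-rich C1 domain family, had a difference of -1.08 log2 units with phosphate and -2.49 log2 units without. PIMT2, a methyltransferase that repairs isoaspartate in proteins, had -1.03 and -1.12 log2 units. AT4G17098, annotated as a long noncoding RNA, had 1.06 and 1.01 log2 units, and 1791 of its 3069 bases overlap AT4G17100 on the other strand.

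Asking that the higher of the crr +Pi and Col-0 +Pi means, not their average, reach 1 log2 CPM kept 17958 genes. Of these, 2 were at least 2-fold higher in crr and 14 lower. The genes added this way passed only through the group where they were higher, so their differences carry that selection. The higher pair was PI4KG3 and CXE17, an annotated carboxylesterase at 1.08 log2 CPM in crr and 0.00 log2 CPM in Col-0. Those added at the lower end, named after their values were seen, included GLR2.2, a glutamate receptor-like channel, at -0.12 log2 CPM in crr and 1.21 log2 CPM in Col-0. CLE42, a CLE signalling peptide, lay at 0.09 log2 CPM in crr and 1.28 log2 CPM in Col-0. POT5, a potassium transporter, lay at 0.40 log2 CPM in crr and 1.41 log2 CPM in Col-0. The central range at the levels of CXE17, GLR2.2, CLE42 and POT5 was -0.797 to 0.709 log2 units. Without phosphate the differences of GLR2.2, CLE42 and POT5 were 0.04, -0.47 and -0.09 log2 units.

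Genes around CRR above the level limit lay between -0.14 and 0.20 log2 units with phosphate. Within 50 kb of CRR, 13 genes were above the level limit, with a median difference of 0.07 log2 units. The lowest was STR4A at -0.14 log2 units and the highest AT3G25400 at 0.20 log2 units. The nearest measured genes, AT3G25400 at 2.21 kb and BASS3 at 3.62 kb, had the highest differences, 0.20 and 0.19 log2 units. Without phosphate AT3G25400 and BASS3 had 0.56 and 0.16 log2 units. Whether the insertion has a part in these differences was not tested. Around AT1G64795, 19 genes above the limit lay between -0.20 log2 units for AMT1-2 and 0.23 log2 units for BDG1, with a median of -0.05 log2 units. None of the genes near either locus was 2-fold apart. By chromosome, the share of genes at least 1.5-fold apart was 0.665% on chromosome 1, 0.75% on 2, 0.397% on 3, 0.513% on 4 and 0.479% on 5.

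**Figure D4:**
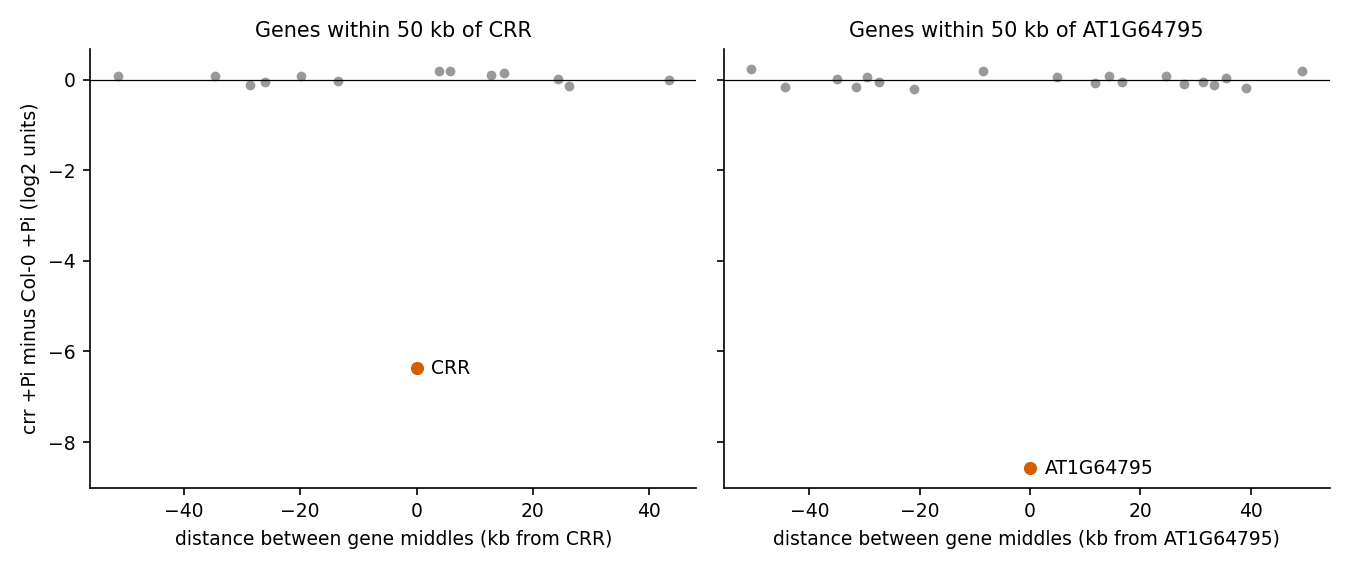
The crr minus Col-0 differences with phosphate (log2 units) of the genes above the level limit within 50 kb of CRR (left, 13 genes) and AT1G64795 (right, 19 genes), by the distance between gene middles in kb, with the locus itself in orange. The neighbours lie between -0.20 and 0.23 log2 units, and AT1G64795 is drawn against a crr mean at the lowest value of the table.

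Lists of genes by function described the rest of the transcriptome. Of 37 lists, 30 had a median difference within 0.1 log2 units of 0, beside 0.002 log2 units for all genes above the limit. CRR was the only one of the 923 listed genes above the limit that was 2-fold apart, and 4 were 1.5-fold apart: CRR, CYP712A1, GOLS2 and PSAD2. These 4 made 0.433% of the listed genes, beside 0.557% of all genes above the limit. The list medians ranged from -0.155 to 0.192 log2 units. Among all genes above the limit, 9001 were higher in crr and 8770 lower, the background for the counts by direction in each list.

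As a list, the iron acquisition genes had a median near 0 with phosphate. None of the 16 iron acquisition genes above the limit was 1.5-fold apart, 6 were higher in crr and 10 lower, and their median was -0.069 log2 units. FRO2, the ferric chelate reductase of the root surface, lay at 7.23 log2 CPM in crr and 7.34 log2 CPM in Col-0. IRT1, the ferrous iron importer, lay at 7.71 log2 CPM in crr and 7.80 log2 CPM in Col-0, and FIT, the bHLH factor that drives both, at 5.74 log2 CPM in crr and 5.96 log2 CPM in Col-0. The difference of FIT, named after its value was seen, was -0.22 log2 units, outside the central range at its level, -0.191 to 0.170 log2 units. The lowest was AtMYB10, a factor of the iron deficiency response, at 2.26 log2 CPM in crr and 2.67 log2 CPM in Col-0, and the highest was IRT2 at 3.07 log2 CPM in crr and 2.91 log2 CPM in Col-0. Of the 4 FRO family genes above the limit, FRO4 was highest, with a difference of 0.29 log2 units. The central range at its level was -0.233 to 0.220 log2 units, and without phosphate the difference of FRO4 was -1.32 log2 units.

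Most iron storage and excess genes were higher in crr by small amounts. Of 10 above the limit, 9 were higher in crr, beside 9001 higher and 8770 lower among all genes above the limit. No gene of the list was at 1.5-fold. The list median was 0.088 log2 units with phosphate and 0.024 log2 units without. VTL1, a vacuolar iron transporter-like protein, lay at 4.44 log2 CPM in crr and 4.20 log2 CPM in Col-0. The ferritins FER1, FER2, FER3 and FER4, which store iron in plastids and mitochondria, had differences of 0.09, 0.02, 0.03 and 0.18 log2 units. Among the 23 genes of iron deficiency signalling and distribution above the limit, 7 were higher in crr and 16 lower, with a median of -0.012 log2 units. BHLH100, a bHLH factor induced by iron shortage, lay lowest at 1.99 log2 CPM in crr and 2.46 log2 CPM in Col-0. The citrate transporter DTX43 lay highest at 5.22 log2 CPM in crr and 5.06 log2 CPM in Col-0. The difference of BHLH100 was -0.47 log2 units with phosphate, outside the central range of -0.419 to 0.376 log2 units at its level. Without phosphate it was 0.46 log2 units.

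As a list, the phosphate starvation genes likewise had a median near 0. Of 22 phosphate starvation genes above the limit, 9 were higher in crr and 13 lower, with a median of -0.027 log2 units. The ends were AT4, a noncoding RNA that sequesters miR399, at 3.34 log2 CPM in crr and 3.06 log2 CPM in Col-0, and ATPS3, a putative glycerol-3-phosphate transporter, at 5.29 log2 CPM in crr and 5.63 log2 CPM in Col-0. AT4 had a difference of 0.28 log2 units, beside a central range of -0.305 to 0.278 log2 units at its level. ATPS3 had -0.34 log2 units, beside a central range of -0.191 to 0.170 log2 units. Of 12 genes of phosphate sensing in the root tip, 4 were higher in crr and 8 lower. LPR1, a cell wall ferroxidase of that pathway, had the lowest value at 3.83 log2 CPM in crr and 4.13 log2 CPM in Col-0, and the receptor CLV2 had the highest, a difference of 0.24 log2 units. The 12 genes of membrane lipid remodelling had a median of -0.049 log2 units, with the phospholipase NPC4 lowest at 3.62 log2 CPM in crr and 4.03 log2 CPM in Col-0. The difference of NPC4, -0.41 log2 units, lay outside the central range at its level, -0.305 to 0.278 log2 units.

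Root cell type markers differed by list in their direction, beside 9001 genes higher in crr and 8770 lower among all above the limit. All 5 root cap genes were higher in crr, with a median of 0.192 log2 units, from SMB at 0.07 to BRN1 at 0.23 log2 units, and their summed level was 41.4 CPM in crr and 36.7 CPM in Col-0. Of 8 root stem cell niche genes above the limit, 7 were higher in crr, with a median of 0.172 log2 units. PLT1, a factor of the stem cell niche, lay at 4.17 log2 CPM in crr and 3.82 log2 CPM in Col-0, and SCR had the lowest difference at -0.03 log2 units. Of 18 endodermis and suberin genes, 15 were lower in crr, with a median of -0.116 log2 units and summed levels of 1190 CPM in crr and 1270 CPM in Col-0. Without phosphate the medians of the same lists were 0.130, 0.092 and 0.202 log2 units, so the endodermis list had the other sign there. Root hair genes had a median of 0.043 and xylem and phloem genes of -0.015 log2 units. Markers of all these cell types were detected in both groups. No marker of these lists was 1.5-fold apart, and the part of cell type makeup in the other lists was not tested.

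Genes of photosynthesis, which are markers of green tissue, summed to 413 CPM in crr and 389 CPM in Col-0. Of 35 above the limit, 26 were higher in crr, with a median of 0.140 log2 units. PSAD2, a photosystem I subunit, lay at 1.72 log2 CPM in crr and 1.05 log2 CPM in Col-0, while PSAK had the lowest difference at -0.16 log2 units. Without phosphate the median was -0.367 log2 units.

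**Figure D5:**
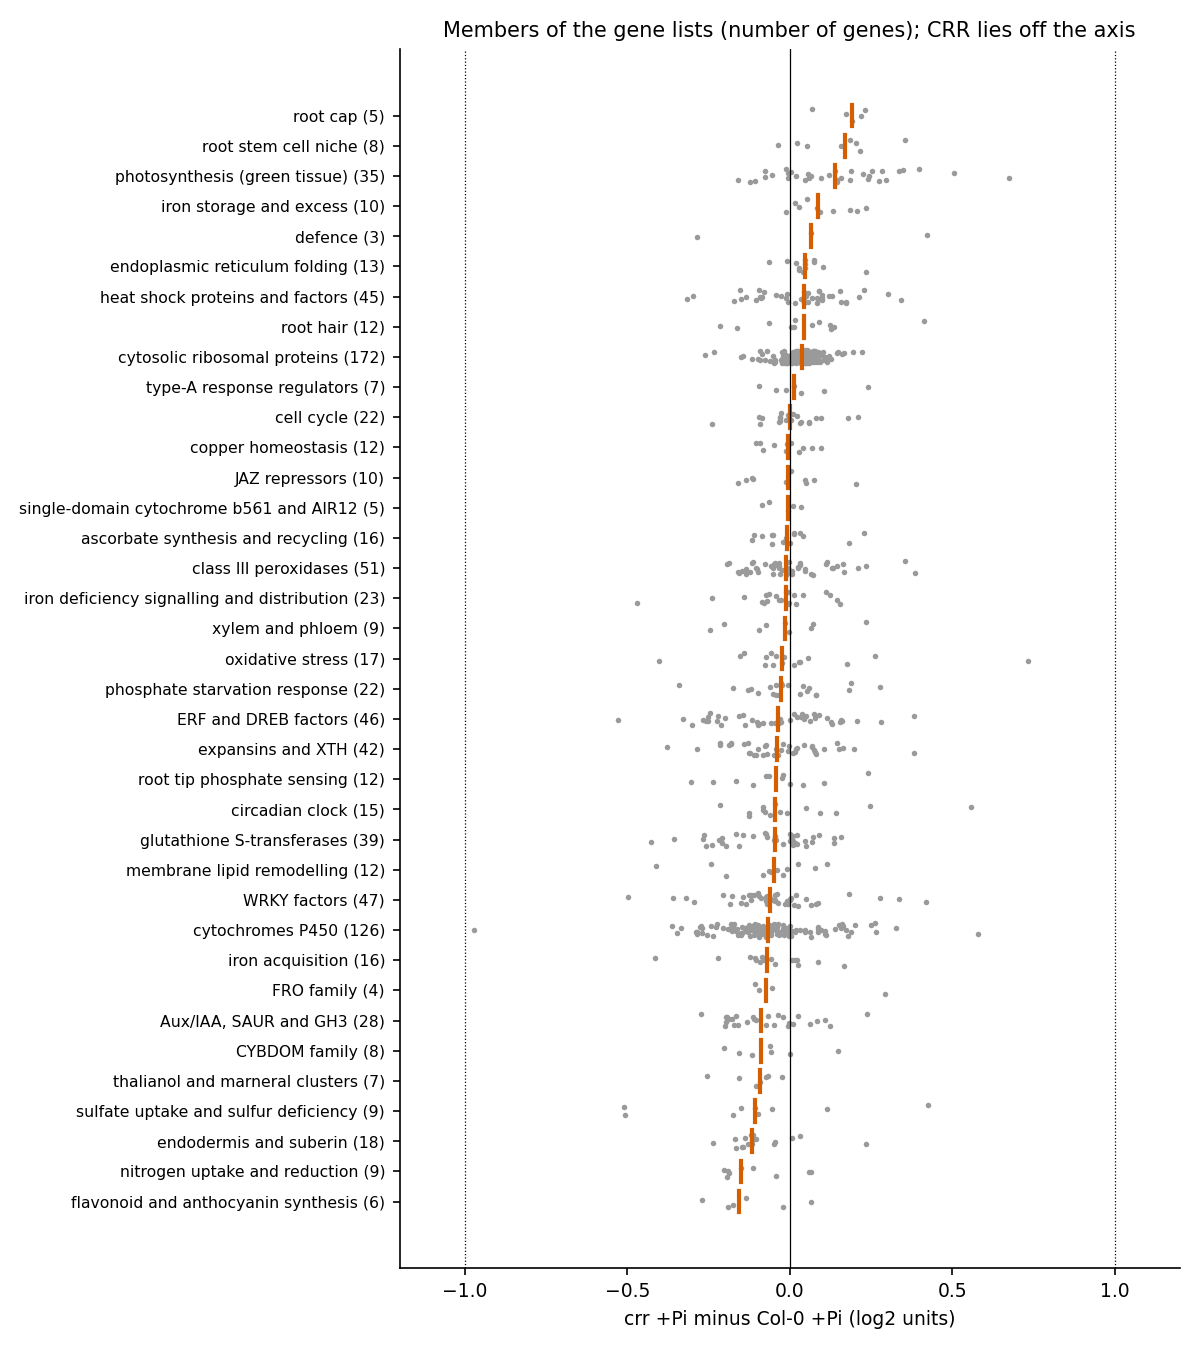
Each grey point is a listed gene above the level limit, placed by its crr minus Col-0 difference with phosphate (log2 units), and the orange bar is the median of its list, with lists ordered by median and their gene numbers in brackets. Medians lie between -0.155 and 0.192 log2 units, and no point drawn reaches the dotted lines at 2-fold, with CRR off the axis.

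Among nutrient lists outside iron and phosphate, the nitrogen and sulfur lists had medians under 0 and the copper list a median near 0. Of 9 nitrogen uptake and reduction genes above the limit, 7 were lower in crr, with a median of -0.149 log2 units, and the ends were the ammonium transporters AMT1-2 at 7.14 log2 CPM in crr and 7.34 log2 CPM in Col-0 and AMT1-1 at 7.71 log2 CPM in crr and 7.64 log2 CPM in Col-0. Of 9 sulfate uptake and sulfur deficiency genes, 7 were lower in crr, with a median of -0.108 log2 units. SDI1, a gene induced by sulfur shortage, lay lowest at 1.55 log2 CPM in crr and 2.06 log2 CPM in Col-0, and the sulfate transporter SULTR1;1 lay highest at 2.16 log2 CPM in crr and 1.74 log2 CPM in Col-0. The 12 copper genes above the limit had a median of -0.005 log2 units, with ZIP4 at -0.10 and COPT1 at 0.10 log2 units.

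Secondary metabolism lists held more genes that were lower in crr with phosphate. Of 6 flavonoid genes above the limit, 5 were lower, with a median of -0.155 log2 units. They ranged from CYP75B1, the flavonoid 3'-hydroxylase, at -0.27 to the activator MYB12 at 0.07 log2 units. Without phosphate the flavonoid median was 0.116 log2 units. All 7 genes of the thalianol and marneral clusters were lower in crr, with CYP705A12 at -0.25 and BAHD1 at -0.02 log2 units, and without phosphate their median was 0.283 log2 units. Of 126 genes with a cytochrome P450 symbol above the limit, 96 were lower in crr and 30 higher, beside 8770 lower and 9001 higher among all genes above the limit, and their median was -0.068 log2 units. CYP77B1 was the highest of them at 0.58 log2 units. Of 172 cytosolic ribosomal protein genes, 134 were higher in crr, with a median of 0.038 log2 units. Among all genes the median was 0.011 log2 units between 6 and 8 log2 CPM and 0.019 log2 units above 8 log2 CPM. The part of level in the ribosomal median was not tested. RPL39B lay highest at 0.22 and RPS23A lowest at -0.26 log2 units, and paralogous ribosomal genes can share reads.

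Stress and hormone lists had medians near 0. Among 17 oxidative stress genes the median was -0.024 log2 units. GOLS2 was highest at 0.73 log2 units, the only member of the list past 1.5-fold. The zinc finger factor ZAT12 was lowest at 2.51 log2 CPM in crr and 2.91 log2 CPM in Col-0. The 51 class III peroxidases had a median of -0.011, the 39 glutathione S-transferases of -0.046 and the 16 genes of ascorbate synthesis and recycling of -0.009 log2 units, where VTC2, the GDP-L-galactose phosphorylase, lay lowest at -0.12 log2 units. The 47 WRKY factors had a median of -0.062 log2 units, between WRKY45 at -0.50 and WRKY70 at 0.42 log2 units. The 46 ERF and DREB factors had a median of -0.037 log2 units, between ERF104 at -0.53 and ERF9 at 0.38 log2 units. The 28 genes with an Aux/IAA, SAUR or GH3 symbol had a median of -0.088 log2 units, between SAUR72 at -0.27 and IAA31 at 0.24 log2 units, and as the list goes by symbol it leaves out the GH3 family genes AT5G51470 and AT1G23160, at 0.77 and 0.71 log2 units. The 45 heat shock genes had a median of 0.043 and the 13 genes of protein folding in the endoplasmic reticulum of 0.046 log2 units. Among 15 clock genes, APRR9 was highest at 0.56 and LHY lowest at -0.21 log2 units.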

How the data were processed

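Roots of Col-0 and crr seedlings were sequenced as 3 libraries per genotype and phosphate supply. Per the labels and the study's methods, the authors trimmed reads (cutadapt 1.8), aligned them to TAIR10 (STAR 2.5.3a), counted them per gene (HTSeq 0.9.1), kept genes with at least 1 CPM in a sample and scaled libraries by TMM in edgeR 3.24.3. The deposited table gives the authors' mean log2 CPM per group. RNA came from a column kit per the labels and from Trizol per the methods. For the prior count and strand setting, a value was not given in the sources used here. Deposited columns of the authors' fold changes, p-values and F values were not used. TMM scaling sets levels relative to the library, so a shift shared by most genes would not be seen.

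The crr minus Col-0 difference was taken for every gene (Python 3.11, pandas), and 2-fold means at least 1 log2 unit. The table of group means holds no read totals, and the read numbers that the study gives per library were not used here. The 100 genes with no usable position stayed out of the neighbour counts. Of 19898 genes matched by locus tag, 99.8% had the same coordinates in RefSeq TAIR10.1. Named genes were CRR and its family, the 15 highest and 15 lowest differences above the limit, listed genes past 2-fold and the highest and lowest of each list. FIT, IRT1, the ferritins and loci marked in the text were added after their values were seen. In pattern-based lists, 3 photosynthesis and 4 ERF matches were dropped because their symbols stand for other proteins. Another 61 ribosomal matches were dropped because their descriptions lacked the words 40S or 60S ribosomal or named mitochondria. Cytosolic members described in other words may be among the 61. The comparison and lists were chosen with earlier results of these data known. The counting step was tested on simulated means with shifts planted well past 2-fold and little noise. That checked the code and says nothing of differences near the fold limit.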

Additional observations from a re-analysis of the deposited data

How the results depend on the processing

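Without a level limit, 79 of 20017 genes were at least 2-fold higher in crr with phosphate and 112 lower. At a limit of 0 log2 CPM the counts were 5 and 14 of 18800 genes. At a limit of 3 log2 CPM 1 of 13801 genes was lower. With the limit on the higher of the group means the counts were 2 higher and 14 lower of 17958 genes. With the limit on the mean of all 4 groups 3 of 17798 genes were higher. On log2(CPM + 1) 0 were higher and 1 was lower. At 1.5-fold 41 were higher and 58 lower. Centring on the median difference and keeping only protein-coding genes moved neither count. Each of the 37 list medians moved by less than the SD of its members' differences under each alternative, which is a wide bar for a median. The largest move was 0.176 log2 units, for defence. In every setting 33 of the medians kept their sign. The others were JAZ repressors, cell cycle, type-A response regulators and defence, whose median of 0.066 log2 units was -0.110 without the limit and at 3 log2 CPM. On log2(CPM + 1) the difference of CRR was -5.19 log2 units. No paired analysis was possible because the columns are group means and carry no replicate number, and leaving out single libraries was not run for the same reason. With no counts in the table, no limit from depth was computed.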

Other observations

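A cluster of neighbouring jacalin-related lectin genes on chromosome 1 stood out among well expressed genes, and was chosen after its values were seen. Jacalin-related lectins bind sugars. JAL8 (AT1G52050) lay at 6.40 log2 CPM in crr and 6.00 log2 CPM in Col-0 with phosphate, JAL9 (AT1G52060) at 7.49 log2 CPM in crr and 7.07 log2 CPM in Col-0, and JAL10 (AT1G52070) at 8.46 log2 CPM in crr and 8.06 log2 CPM in Col-0. Their differences without phosphate were 0.27, 0.16 and 0.22 log2 units. The 14 other jacalin-related genes above the limit lay between -0.20 and 0.19 log2 units. The 3 genes are close relatives and may share reads, so they do not count as separate measurements.

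Other genes at 5 log2 CPM or more with large differences, also chosen after their values were seen, did not keep their sign without phosphate in every case. AT5G21940 lay at 4.64 log2 CPM in crr and 5.39 log2 CPM in Col-0 with phosphate, and at 3.72 log2 CPM in crr and 3.00 log2 CPM in Col-0 without. BT5, a BTB and TAZ domain protein, lay at 5.62 log2 CPM in crr and 6.10 log2 CPM in Col-0 with phosphate, and its difference without phosphate was 0.37 log2 units. AT3G19430, a protein related to late embryogenesis abundant proteins, lay at 6.56 log2 CPM in crr and 6.06 log2 CPM in Col-0, with a difference of 0.07 log2 units without phosphate. CEL5, an endoglucanase, lay at 5.67 log2 CPM in crr and 5.23 log2 CPM in Col-0, with 0.32 log2 units without phosphate.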
